A study of Homo sapiens with 12 samples.

Results

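miR-208a, miR-208b, miR-499a and miR-490 are microRNAs (miRNA) whose hairpins lie in introns of genes of the heart, MYH6, MYH7, MYH7B and CHRM2. Their rows were sought by name in the miRNA count table, both arms of each hairpin, and 7 of the 8 arms had a row among the 1133 miRNA of the table. The members were hsa-miR-208a-3p, hsa-miR-208a-5p, hsa-miR-208b-3p, hsa-miR-499a-5p, hsa-miR-499a-3p, hsa-miR-490-3p and hsa-miR-490-5p, written without the prefix from here on. The study sequenced small RNA of extracellular vesicles (EV) released during differentiation of the human induced pluripotent stem cell (hiPSC) line iPS(IMR90)-4 into cardiomyocytes. EV were collected from undifferentiated cells (hiPSC-EV, day 0, medium conditioned for 24 h), cardiac progenitor cells (CPC-EV, day 6, 72 h), immature cardiomyocytes (CMi-EV, day 15, 48 h) and cardiomyocytes after maturation (CMm-EV, day 35, 48 h). According to the paper, the cells of both cardiomyocyte groups were grown as aggregates, those of the earlier groups were monolayers, and each group had its own medium, which for CMm-EV held galactose and fatty acids in place of glucose. Each group had 3 libraries, from 3 independent cultures, and the stage cannot be told apart from the medium in any comparison. Hours in medium and culture format also differ between some groups, but not between CMi-EV and CMm-EV. Library totals ran from 703418 miRNA counts in hiPSC-EV 1 to 6272456 in CMm-EV 2.

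The heavy chains of cardiac myosin come in an alpha form, encoded by MYH6, and a beta form, encoded by MYH7, and the balance between them changes with development and with stress of the heart. miR-208a and miR-208b are made from introns of these genes and miR-499a from an intron of the related MYH7B, so that a myosin transcript and its miRNA share a primary transcript. CHRM2 encodes the muscarinic acetylcholine receptor through which the vagus nerve slows the heart. A miRNA recognises its target transcripts mainly through its seed, near the 5′ end.

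The mature sequences of the members the results turn on show which of them share a seed, in RefSeq on GRCh38.p14, where all 7 members had an entry. Capitals mark the seed, bases 2 to 8.
miR-208a-3p: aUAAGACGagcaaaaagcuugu
miR-208b-3p: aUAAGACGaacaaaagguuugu
miR-499a-5p: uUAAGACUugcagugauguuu
miR-208a-5p: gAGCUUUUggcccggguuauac
miR-490-3p: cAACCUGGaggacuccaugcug
miR-490-5p: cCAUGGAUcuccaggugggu

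miR-208a-3p and miR-208b-3p had the same seed and differed at 3 of 22 positions, counted from the 5′ end, with G10A, A16G and C18U (the base of miR-208a-3p is given first). miR-499a-5p shared bases 2 to 7 with both and differed from miR-208a-3p at base 8 (G8U). Among the 2370 mature miRNA names of the reference, no other shared bases 2 to 7 with these 3 miRNA. The seeds of miR-208a-5p, miR-490-3p and miR-490-5p were held by no other mature miRNA over bases 2 to 8.

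The hairpins are given with the mature arms of the reference in capitals and show where both arms lie, except in MIR208B. There miR-208b-3p alone is marked, since miR-208b-5p had no entry in the reference.
MIR208A: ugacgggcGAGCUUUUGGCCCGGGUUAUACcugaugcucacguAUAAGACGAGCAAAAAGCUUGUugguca
MIR208B: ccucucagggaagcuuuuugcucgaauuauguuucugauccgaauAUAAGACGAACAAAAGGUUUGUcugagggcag
MIR499A: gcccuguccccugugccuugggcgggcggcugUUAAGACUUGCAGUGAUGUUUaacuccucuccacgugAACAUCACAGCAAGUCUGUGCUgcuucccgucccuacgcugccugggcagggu
MIR490: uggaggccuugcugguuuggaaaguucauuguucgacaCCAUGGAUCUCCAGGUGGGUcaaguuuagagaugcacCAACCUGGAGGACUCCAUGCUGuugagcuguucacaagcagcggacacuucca

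On GRCh38, MIR208A lies at chr14:23388596-23388666 on the minus strand, in intron 29 of the 38 introns of the canonical MYH6 transcript of GENCODE. MIR208B lies at chr14:23417987-23418063 on the minus strand, in intron 30 of 39 of MYH7. MIR499A lies at chr20:34990376-34990497 on the plus strand, in intron 22 of 44 of MYH7B. MIR490 lies at chr7:136903167-136903294 on the plus strand, in intron 2 of 3 of CHRM2. The first 3 introns are 520, 523 and 427 bases long and that of CHRM2 122768. Each hairpin has the strand of its host and overlaps no exon of that transcript. MIR499B is encoded on the other strand within MIR499A, and its arms had no row in the count table.

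The members were near or at 0 in EV of undifferentiated cells. Levels are given as CPM, the counts of a miRNA scaled to the same total of miRNA counts in each library and then normalized by TMM, edgeR's trimmed mean, across the 12 libraries. In hiPSC-EV, miR-499a-5p had 10 counts in library 3 (2.13 CPM), miR-208a-3p and miR-490-3p had 1 count each in the same library, and the other members had none. A library without a count allows a level of up to 3 counts, and this limit was 3.48 CPM for hiPSC-EV 1 and 0.640 CPM for hiPSC-EV 3. hiPSC-EV 3 was also the deepest library of its group, with 5598296 miRNA counts.

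CPC-EV held members in some libraries and not in others. miR-208a-3p had 44 counts in CPC-EV 1 (16.9 CPM) and none in CPC-EV 2 and 3. miR-208a-5p had 31, 18 and 0 counts in CPC-EV 1 to 3, and miR-490-3p had 9, 156 and 0. Both arms of miR-208a and miR-490-3p were thus absent from the counts of CPC-EV 3, where the limit was 1.12 CPM. miR-208b-3p, miR-499a-5p and miR-490-5p had no count in any CPC-EV library.

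From CPC-EV to CMi-EV, both arms of miR-208a and of miR-490 rose. miR-208a-3p, the arm that carries the seed shared with miR-208b-3p, was at 524 CPM in CMi-EV 1, 658 CPM in CMi-EV 2 and 792 CPM in CMi-EV 3. miR-490-3p was at 584, 613 and 788 CPM in the same libraries. These arms lay at like levels, 658 ± 134 and 662 ± 111 CPM (mean ± SD, n = 3), which ranked 62 and 61 among the 516 miRNA with a count in CMi-EV. miR-208a-5p was at 81.1, 278 and 371 CPM, lowest in CMi-EV 1. miR-490-5p was at 45.0, 77.2 and 79.7 CPM. Every CMi-EV library lay above every CPC-EV library for each of these 4 arms, as for 22.6% of the 292 miRNA tested in this comparison.

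The test covered miRNA with 5 CPM or more on library size in all 3 libraries of either group. Differentially expressed (DE) here means a false discovery rate (FDR) no higher than 0.05 together with an absolute log2 fold change no lower than 1. Of the 4 members tested between CMi-EV and CPC-EV, 4 were DE and higher in CMi-EV, where 14.4% of the 292 miRNA tested were DE and higher. These members passed the filter through CMi-EV alone and so had to differ, and their count is no support for a change. In the edgeR quasi-likelihood test with Benjamini-Hochberg adjustment, the log2 fold change of miR-208a-3p was 6.79 (standard error (SE) 1.46, FDR 0.0292, higher in 3 of 3 libraries). It was 5.58 for miR-490-3p (SE 1.25, edgeR FDR 0.0293) and 5.39 for miR-208a-5p (SE 1.23, edgeR FDR 0.0303), while the median over the tested miRNA was -0.047, and -0.52 on library size alone, where the same 4 were called. miR-490-5p, with no count in CPC-EV, was at least 58.5-fold higher in CMi-EV (edgeR FDR 0.00453), taking 3 counts in the CPC-EV library with the highest limit, and at least 36.7-fold on library size alone. The size of these changes rested on single CPC-EV libraries. The log2 fold change was 13.66 for miR-208a-3p without CPC-EV 1, which left CPC-EV without a count, and 8.55 for miR-490-3p without CPC-EV 2. For miR-208a-5p it was 6.69 without CPC-EV 1 and 4.80 without CPC-EV 3. The calls of the first 3 arms lay near the threshold, and that of miR-208a-5p was lost with the replicate block (edgeR FDR 0.0589). Without CMi-EV 2, miR-490-5p was the 1 member called, and the edgeR FDR of the others was 0.0583 for miR-208a-3p, 0.0572 for miR-490-3p and 0.0665 for miR-208a-5p. Without CMi-EV 1, miR-208a-3p (edgeR FDR 0.0771) and miR-490-3p (0.0783) lost the call while miR-499a-5p entered the test and gained it. Each of the 4 other left-out libraries cost 1 call: miR-490-3p without CPC-EV 1 (edgeR FDR 0.119), miR-208a-5p without CPC-EV 2 (0.0953) or CMi-EV 3 (0.0637), and miR-208a-3p without CPC-EV 3 (0.0584). Over all alternatives, the FDR ran from 1.33e-18 to 0.0771 for miR-208a-3p, from 1.02e-15 to 0.119 for miR-490-3p and from 1.23e-07 to 0.0953 for miR-208a-5p. The lowest value of each came from the edgeR fit without an expression filter. For miR-490-5p the FDR ran from 4.74e-10, by DESeq2, to 0.0444.

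**Figure D1:**
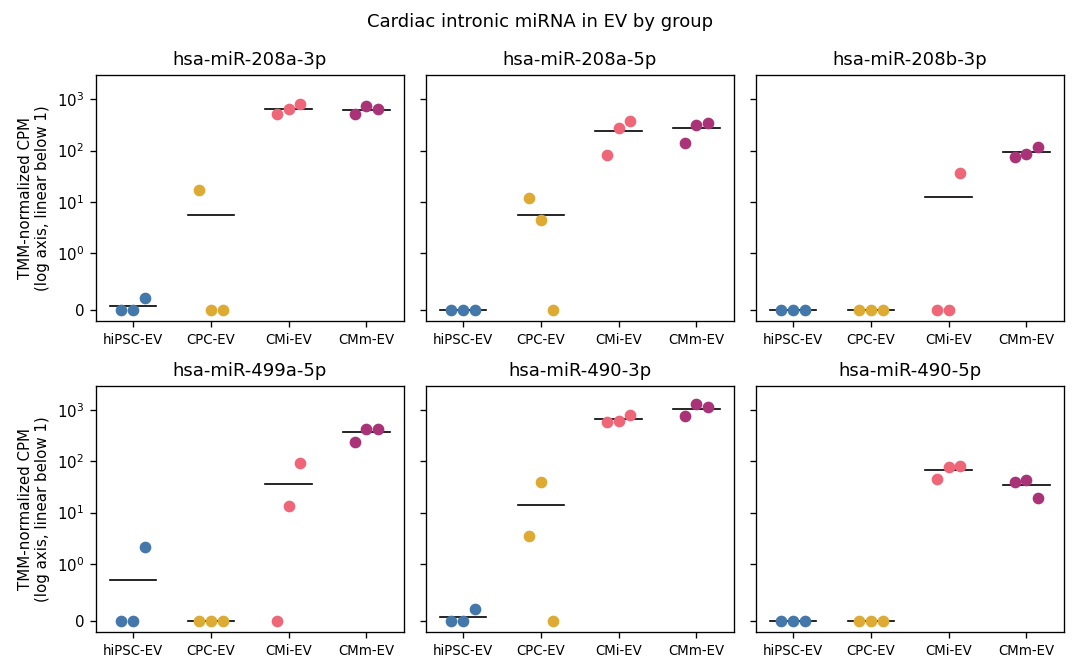
TMM-normalized CPM of 6 members in each library (points, on a log axis that is linear below 1) by EV group, with the group mean as a line. Both arms of miR-208a and miR-490 were high from CMi-EV on, whereas miR-208b-3p and miR-499a-5p reached all 3 libraries in CMm-EV.

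miR-208b-3p and miR-499a-5p had counts in all 3 libraries of CMm-EV only. miR-208b-3p, from the intron of the beta myosin gene, had no count in CMi-EV 1 and 2 and 51 counts in CMi-EV 3 (36.9 CPM). In CMm-EV it was at 75.3, 86.2 and 116 CPM. The lowest CMm-EV library thus lay above the highest CMi-EV library. miR-499a-5p had no count in CMi-EV 1, 26 counts in CMi-EV 2 (13.7 CPM) and 129 in CMi-EV 3 (93.5 CPM). It was at 240, 426 and 436 CPM in CMm-EV, again with no overlap between the groups. Of the 247 miRNA tested between them, 20.6% had every CMm-EV library above every CMi-EV library, so that such an order is common. CMi-EV 3 was the library of its group with the most of both miRNA. The other arm of its hairpin, miR-499a-3p, had 24 counts in CMm-EV 3 (9.47 CPM) and none elsewhere, and did not pass the filter.

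None of the 6 members tested between CMm-EV and CMi-EV was DE, where 16.6% of the 247 miRNA tested were DE in either direction. By edgeR 0 of the 6 had an unadjusted p under 0.05, and DESeq2 called 0. The log2 fold change was 3.22 for miR-499a-5p (SE 1.46, edgeR quasi-likelihood FDR with Benjamini-Hochberg adjustment 0.236) and 2.77 for miR-208b-3p (SE 1.82, edgeR FDR 0.388). Both rested on CMi-EV 3. Without that library, the log2 fold change of miR-499a-5p was 5.83 (edgeR FDR 0.0314) and that of miR-208b-3p 10.67 (edgeR FDR 0.00783), the latter against a group then without a count. Both miRNA passed the filter through CMm-EV alone, and the library left out is the one of CMi-EV with the most of both, so that these calls are no support for a change. Without an expression filter, miR-499a-5p was called too (edgeR FDR 9.80e-05), and over the alternatives its FDR ran from 9.80e-05 to 0.414, and that of miR-208b-3p from 0.00783 to 0.527.

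The arms that were high in CMi-EV were also found in each CMm-EV library. miR-208a-3p was at 508, 731 and 637 CPM, a log2 fold change of -0.23 (SE 0.28, edgeR FDR 0.589). miR-208a-5p was at 142, 316 and 351 CPM, a log2 fold change of 0.0069 (SE 0.65, edgeR FDR 0.993). miR-490-3p was at 777, 1306 and 1123 CPM, a log2 fold change of 0.54 (SE 0.28, edgeR FDR 0.282). With 1069 ± 269 CPM it was the most abundant member in CMm-EV, at rank 49 of 507. miR-490-5p was at 40.1, 44.0 and 19.3 CPM, below each CMi-EV library, as were 23.9% of the tested miRNA, with a log2 fold change of -1.14 (SE 0.70, edgeR FDR 0.331). For the 247 tested miRNA the median change was -0.30 on the log2 scale, and -0.91 on library size alone, where miR-208a-3p was at -0.82, miR-490-3p at -0.074 and miR-208a-5p at -0.68.

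**Figure D2:**
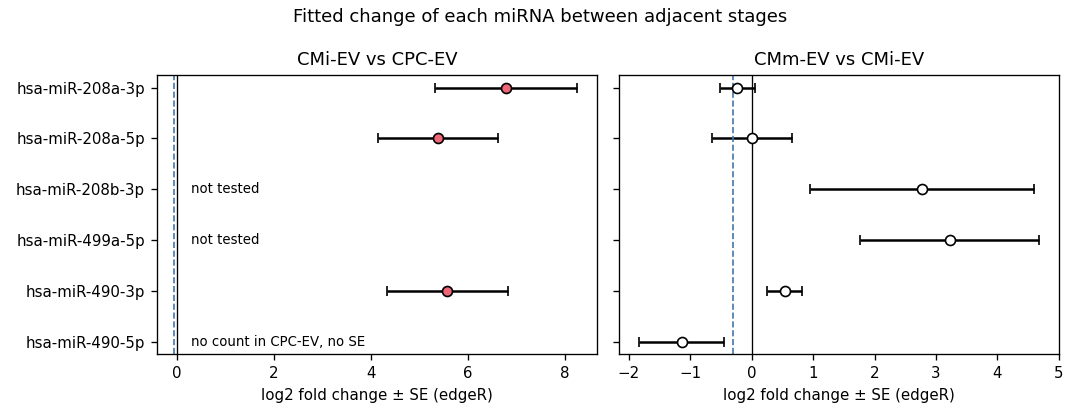
Fitted log2 fold change of each member tested between adjacent stages, with its standard error where one is given, filled where DE. The dashed line is the median of all tested miRNA, and miR-499a-5p and miR-208b-3p had the widest errors between CMm-EV and CMi-EV.

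Against the undifferentiated cells, all 6 members that passed the filter were DE and higher in CMm-EV than in hiPSC-EV, where 16.1% of 336 tested miRNA were DE and higher. With the replicate block 5 were called, without miR-490-5p (edgeR FDR 0.0910). The lowest FDR of miR-490-5p over the alternatives was 3.18e-08, by DESeq2. miR-499a-5p had a log2 fold change of 8.15 (SE 1.07, edgeR FDR 0.00155). All its hiPSC-EV counts were in library 3, and without that library the fitted value was 12.51, against a group with no count. miR-490-3p (edgeR FDR 3.55e-05) and miR-208a-3p (edgeR FDR 5.38e-05) had 1 count each in hiPSC-EV, so that their size is given as a ratio of summed, scaled counts. It was 9519 for miR-490-3p (exact 95% counting interval 1708 to 376028) and 5419 for miR-208a-3p (972 to 214094), and on library size alone 6013 (1079 to 237520) and 3423 (614 to 135234). Since hiPSC-EV held no count of miR-208a-5p, miR-208b-3p or miR-490-5p, bounds apply, and CMm-EV was at least 77.4-fold higher for miR-208a-5p, at least 26.5-fold higher for miR-208b-3p and at least 9.90-fold higher for miR-490-5p. On library size alone these bounds were 37.8, 13.5 and 5.44. All 6 had passed the filter through CMm-EV alone and so had to differ, and their count is no support for a change. Between CPC-EV and hiPSC-EV no member passed the filter, and 27.5% of 338 tested miRNA were DE. Without CPC-EV 3, miR-490-3p and miR-208a-5p passed it through CPC-EV alone and were called by edgeR. Both were at 0 in the library left out, so that these calls are no support for a change. With all libraries and no expression filter, 4 members were tested and edgeR called 0.

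With the mean of CMi-EV and CMm-EV set against that of hiPSC-EV and CPC-EV, 6 of 6 members tested were DE and higher, beside 17.2% of 367 miRNA. Over the 4 EV groups, the edgeR F-test called 6 of 6, beside 50.7% of 367. The weakest was miR-208b-3p, with an edgeR FDR of 0.00903 in the first and 0.0296 in the second. It lost the first call without CMi-EV 3 (edgeR FDR 0.9997), while the lowest edgeR FDR over the alternatives was 7.05e-06, without an expression filter. The second call of miR-208b-3p was lost without hiPSC-EV 1, hiPSC-EV 3 or any single CMm-EV library, which left 5 members called. These members too had passed the filter in cardiomyocyte EV alone.

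Shares within a library do not depend on the scaling between libraries. Of the counts of miR-208a-3p and miR-208b-3p together, miR-208b-3p took 0 of 1189 in CMi-EV 1 (exact 95% binomial interval up to 0.310%). It took 0 of 1254 in CMi-EV 2 (up to 0.294%) and 4.46% in CMi-EV 3 (3.34% to 5.82%). In CMm-EV 1 to 3 it took 12.9% (10.0% to 16.3%), 10.5% (9.49% to 11.7%) and 15.4% (13.8% to 17.1%). All CMm-EV libraries lay above all CMi-EV libraries, but how often shares of other miRNA separate in this way was not computed. The mean was 13.0% ± 2.43 in CMm-EV and 1.49% ± 2.57 in CMi-EV (SD, n = 3), a difference of 11.5 percentage points with an exact two-sided permutation p of 0.10, the smallest that 3 against 3 libraries allow.

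The fragments of the host genes did not split the groups in this way. Of the MYH6 and MYH7 fragments in the gencode transcript table, MYH7 took 8.96%, 5.19% and 4.67% in CMi-EV 1 to 3 and 21.4%, 34.3% and 3.84% in CMm-EV 1 to 3. CMm-EV 3, with the lowest MYH7 share of the 6 libraries, had the highest miR-208b-3p share. MYH6 and MYH7 have nearly the same coding sequence, so that the split of short fragments between them is uncertain. No test was run on these fragments.

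The 3 miRNA that share bases 2 to 7 can also be read as 1 pool. miR-499a-5p took 0, 2.03% and 10.1% of their joint counts in CMi-EV 1 to 3, and 29.2%, 34.3% and 36.7% in CMm-EV 1 to 3. This share was computed after the values had been seen and was not tested. Their joint level was 706 ± 201 CPM in CMi-EV and 1085 ± 228 CPM in CMm-EV, with library ranges of 524 to 922 and 823 to 1243 CPM that overlapped. On library size alone the order of the means turned, with 747 ± 192 CPM in CMi-EV and 677 ± 77.1 CPM in CMm-EV, so that no direction is given. In CMi-EV 1, miR-208a-3p made up all 1189 counts of the 3 miRNA.

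The counts of miR-490 can be split by arm in the same way. miR-490-5p took 7.15% (exact 95% binomial interval 5.87% to 8.62%), 11.2% (9.53% to 13.0%) and 9.18% (7.61% to 11.0%) of the counts of both arms in CMi-EV 1 to 3. In CMm-EV 1 to 3 it took 4.90% (3.40% to 6.82%), 3.26% (2.79% to 3.79%) and 1.69% (1.25% to 2.23%). Each CMm-EV library lay below each CMi-EV library, but how often arm shares of other miRNA separate in this way was not computed. The means were 3.29% ± 1.61 in CMm-EV and 9.17% ± 2.02 in CMi-EV. The difference was -5.89 percentage points (exact two-sided permutation p of 0.10, again the smallest possible). CPC-EV 2, with 156 counts of miR-490-3p, had none of miR-490-5p (exact 95% binomial interval up to 2.34%). For miR-208a, the 5p arm took 13.4%, 29.7% and 31.9% in CMi-EV 1 to 3 and 21.9%, 30.2% and 35.5% in CMm-EV 1 to 3, ranges that overlapped.

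**Figure D3:**
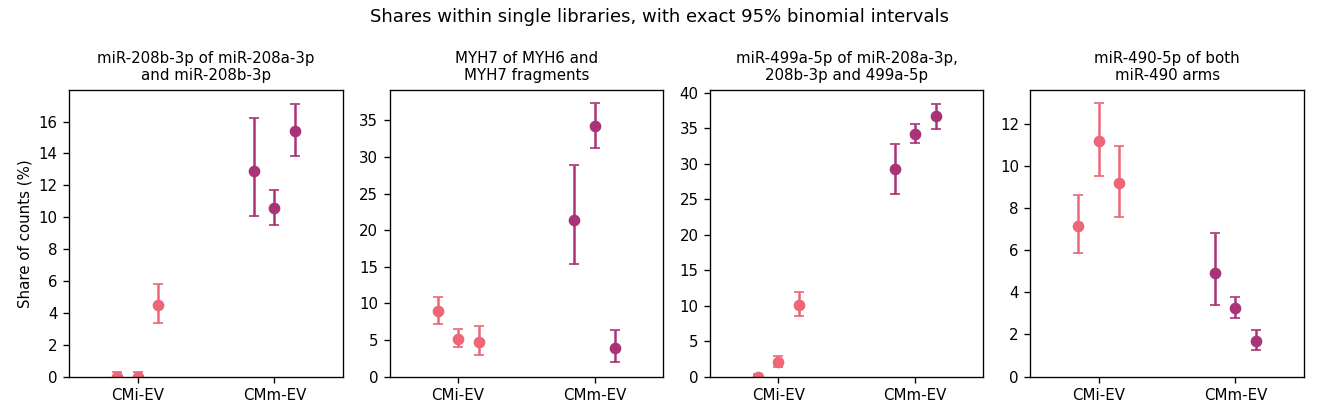
Share of counts within each CMi-EV and CMm-EV library (points) with its exact 95% binomial interval. For both miR-208b-3p and miR-499a-5p the CMm-EV libraries lie above the CMi-EV libraries, and for miR-490-5p below them. How often shares of other miRNA separate in this way was not computed. For MYH7 fragments CMm-EV 3 lies at 3.84%, under all CMi-EV libraries, but its interval overlaps those of CMi-EV 2 and 3.

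Host gene fragments are context for the miRNA, and their levels are CPM of the gencode counts. MYH6 fragments reached 224, 94.9 and 205 CPM in CPC-EV 1 to 3, 2013, 2444 and 2150 CPM in CMi-EV and 916, 1959 and 1129 CPM in CMm-EV. CPC-EV 2 and 3 thus held MYH6 fragments with no count of miR-208a-3p. Of the other arm, miR-208a-5p, CPC-EV 2 had 18 counts and CPC-EV 3 had none. MYH7 fragments were at 198, 134 and 105 CPM in CMi-EV and at 249, 1022 and 45.1 CPM in CMm-EV. MYH7B had at most 3.33 expected counts in a library, and at most 2.66 CPM. It had none in CMm-EV, where miR-499a-5p was highest, but the limits there, 22.8, 9.31 and 10.2 CPM, lay above every MYH7B level seen, so that a lower level was not detectable. CHRM2 had no fragment in hiPSC-EV and CPC-EV, 18 in CMi-EV 2, and 15, 16 and 19 in CMm-EV 1 to 3, while miR-490-3p was high in all CMi-EV libraries. The overlapping transcripts MHRT, MYHEAS and LOC349160 had no row under these names.

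**Figure D4:**
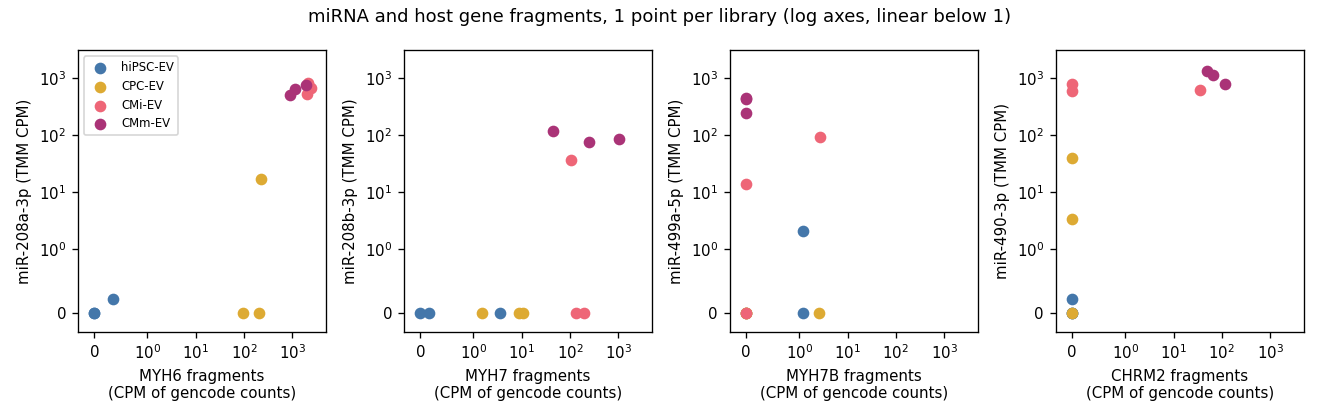
Level of a miRNA against the fragments of its host gene, 1 point per library, on log axes that are linear below 1. MYH7B fragments were at or near 0 in all libraries, under the limits of 9.31 CPM or more in CMm-EV, and MYH6 fragments were present in CPC-EV libraries with no miR-208a-3p.

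Transcript fragments of cell type markers differed between the groups as well, and those of cardiomyocytes were present in every CPC-EV library, where most members had no count. The 16 cardiomyocyte markers with a row, of 17 looked for, summed to 159, 139 and 45.2 CPM in hiPSC-EV 1 to 3, 1875, 1600 and 2216 CPM in CPC-EV, 13371, 11524 and 13892 CPM in CMi-EV and 22194, 14940 and 7833 CPM in CMm-EV. TTN, which encodes titin, was the most abundant in the mean of each group, and 14 of the 16 had a count in CMi-EV and 14 in CMm-EV. TNNI3 was at 0 in both, and MYL2 had no row. The 8 pluripotency markers summed to 709 ± 165, 432 ± 182, 61.6 ± 43.4 and 22.3 ± 29.1 CPM from hiPSC-EV to CMm-EV, but not each alike. POU5F1 had the highest mean in hiPSC-EV (211 CPM) and was at 0 in CMi-EV and CMm-EV, LIN28A led CPC-EV at 334 CPM and CMi-EV at 45.6 CPM, and NANOG, at 0 in CPC-EV, led CMm-EV at 17.7 CPM. The 6 cardiac progenitor markers with a row, of 8 looked for, summed to 1.26 ± 1.75, 294 ± 183, 262 ± 13.1 and 280 ± 250 CPM. ISL1 and NKX2-5 had no row. Of the 6, 6 had a count in CPC-EV, led by HAND2, and 5 in CMi-EV, led by GATA4. In CMm-EV 2 had a count, and HAND2 made up 263 CPM of the mean. MEF2C, HAND1, TBX5 and PDGFRA were at 0 there. Fewer cardiomyocytes in a culture and less of a miRNA per cell cannot be told apart in these bulk libraries, and the part of cell makeup in the levels above was not tested.

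Markers of other cell types were lower than those of cardiomyocytes in CMi-EV and CMm-EV. In CMi-EV and CMm-EV, the 4 smooth muscle markers summed to 48.9 ± 80.7 and 231 ± 355 CPM, led by ACTA2, and the 6 fibroblast markers to 140 ± 123 and 175 ± 66.5 CPM, led by COL1A1. The smooth muscle sums rested on single libraries, with 0, 142 and 4.56 CPM in CMi-EV 1 to 3. They were 639, 52.7 and 0 CPM in CMm-EV 1 to 3. The 3 endothelial markers with a row summed to 0.667 ± 1.16 and 64.7 ± 112 CPM, with VWF at 0, and PECAM1 had no row. Of the 7 endoderm and liver markers looked for, AFP alone had a row, at 0 in CMi-EV and 9.31 ± 16.1 CPM in CMm-EV. The 4 skeletal muscle markers with a row summed to 90.0 ± 73.8 and 75.0 ± 85.6 CPM, led by CKM, and MYOD1 and MYOG had no row.

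Other muscle-enriched miRNA are set beside the members. Of the list of 6, 5 had a row, and miR-1-5p had none. miR-1-3p, the most abundant of them, had means of 43.5 ± 15.9, 912 ± 352 and 46330 ± 27505 CPM in hiPSC-EV, CPC-EV and CMi-EV, and was at 31653, 47078 and 203320 CPM in CMm-EV 1 to 3. CMm-EV 3 stood apart, and on library size alone the means of CMi-EV and CMm-EV were 50300 and 52130 CPM. It was DE from hiPSC-EV to CPC-EV (log2 fold change 4.82, SE 0.39, edgeR FDR 4.82e-04), as was miR-133a-3p (3.52, SE 0.88, edgeR FDR 0.0303), which passed the filter through CPC-EV alone. From CPC-EV to CMi-EV, 4 of 4 tested were DE and higher, beside 14.4% of the 292 miRNA: miR-1-3p (log2 fold change 5.67, SE 0.53, edgeR FDR 0.00107), miR-133a-3p (4.34, SE 0.37, edgeR FDR 5.32e-04), miR-133b (6.37, SE 0.90, edgeR FDR 0.00393) and miR-133a-5p, which had no count in CPC-EV and was at least 43.7-fold higher (at least 27.2-fold on library size alone). The last 2 passed the filter through CMi-EV alone and so had to differ. Between CMi-EV and CMm-EV, the edgeR FDR of the 4 tested ran from 0.206 for miR-133a-3p to 0.559 for miR-133b. miR-206, of skeletal muscle, was at 12.2 ± 11.1 CPM in CMi-EV and 21.5 ± 21.1 CPM in CMm-EV and was tested in no comparison.

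The miRNA nearest to each member were ranked by Pearson's r on log2(CPM + 1) over the 12 libraries among the 361 other expressed miRNA. miR-125b-5p and miR-100-5p were among the 5 nearest to each of the 4 arms of miR-208a and miR-490. miR-100-5p was at 1858 ± 349, 1980 ± 654, 215357 ± 45664 and 418165 ± 120951 CPM from hiPSC-EV to CMm-EV. For miR-208b-3p and miR-499a-5p the lists shared let-7c-5p, miR-27b-3p, miR-181a-3p and miR-215-5p. let-7c-5p was at 64.6 ± 32.4 CPM in CMi-EV and 2564 ± 1348 CPM in CMm-EV, and 0.142 ± 0.246 and 0.124 ± 0.215 CPM in hiPSC-EV and CPC-EV. The 12 libraries fall into 4 groups, and this likeness reflects differences between groups as well as within them.

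Fragments of 5 transcripts described as targets of miR-208 or miR-499 were looked at as context. MED13, a subunit of the mediator complex, had fragments in all 4 groups, at 37.1 ± 52.8, 33.6 ± 32.9, 45.0 ± 39.4 and 6.81 ± 11.8 CPM from hiPSC-EV to CMm-EV. The spread exceeded the mean within hiPSC-EV and within CMm-EV. In CMm-EV, all 6 MED13 fragments were in library 3. CMm-EV 1 and 2 had none, with limits of 22.8 and 9.31 CPM, and neither had hiPSC-EV 2, CPC-EV 1 and CMi-EV 1. SP3 was at 8.22 ± 8.12 CPM in hiPSC-EV and 107 ± 57.6 CPM in CPC-EV, with 1 fragment in CMm-EV and none in CMi-EV. CBX1 was at 39.3 ± 31.1 CPM in hiPSC-EV and 59.8 CPM in CPC-EV 1, PURB at 9.80 ± 9.11 CPM and SOX6 at 1.26 ± 1.75 CPM in hiPSC-EV, and these 3 had no fragment in the other libraries. The limit for fragments ran from 6.00 to 13.7 CPM in CMi-EV and from 9.31 to 22.8 CPM in CMm-EV, above every level of SOX6, of at most 3.25 CPM. These fragments are of EV, not of the cells, and no test was run.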

How the data were processed

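EV small RNA of 12 libraries was analysed as 4 groups of 3. The authors trimmed, aligned and counted reads with exceRpt on hg38 and miRBase, and deposited expected counts per miRNA and per gencode transcript, rounded here to whole numbers. The RPM that the authors deposited beside them served as an alternative scale. Tests were two-sided quasi-likelihood tests of edgeR 4.0.16 in R 4.3.3 on the whole miRNA table with Benjamini-Hochberg adjustment, pairs fitted on their own 6 libraries. Standard errors are not given where a group had no count. Bounds take 3 counts in the library with the highest limit. Shares used scipy 1.17.1. Alternatives were DESeq2 1.42.0, other scalings and filters, unrounded counts, dispersions from all libraries, a replicate block and each library left out. The p-values rest on 3 independent cultures per group, per the labels. Intervals and limits cover counting error only. Named genes were all arms of the 4 hairpins, their hosts and overlapping transcripts, MIR499B arms, other muscle-enriched miRNA, the 5 nearest miRNA per member, marker lists, and MED13, SOX6, PURB, SP3 and CBX1. Members and lists were chosen with earlier results of these data known.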

Additional observations from a re-analysis of the deposited data

Results flagged for a closer look

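Fragments of 3 host genes, which entered no test, lay above every hiPSC-EV library in some later groups. How many other transcripts did so was not computed. The hiPSC-EV levels given are observed ones, and hiPSC-EV 1, with no fragment of MYH6, MYH7 or CHRM2, allowed up to 9.76 CPM. MYH6 fragments were at 94.9 CPM or more in CPC-EV, 2013 CPM or more in CMi-EV and 916 CPM or more in CMm-EV, against at most 0.349 CPM in hiPSC-EV. MYH7 fragments were at 105 CPM or more in CMi-EV and 45.1 CPM or more in CMm-EV, against at most 3.60 CPM in hiPSC-EV. CHRM2 fragments were at 49.6 CPM or more in CMm-EV, with none in hiPSC-EV and CPC-EV and in 1 CMi-EV library only. MYH7 in CPC-EV 3 (1.52 CPM) lay below the highest hiPSC-EV library, and MYH7B stayed at 2.66 CPM or less in every library. Their relation to the miRNA was not tested.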

How the results depend on the processing

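With single libraries left out, the number of members called ran from 0 to 2 between CPC-EV and hiPSC-EV, from 1 to 3 between CMi-EV and CPC-EV and from 0 to 2 between CMm-EV and CMi-EV. Without an expression filter, 1 member was called between CMm-EV and CMi-EV, 5 between CMi-EV and CPC-EV (with miR-499a-5p) and 0 of 4 tested between CPC-EV and hiPSC-EV. Between CMm-EV and CMi-EV, signs turned for miR-490-3p (log2 fold change -0.074) and miR-208a-5p (-0.68) on library size only, and for miR-208a-5p without CMi-EV 1 (-0.32), CMm-EV 2 (-0.12) or CMm-EV 3 (-0.26), against up to 0.58 without CMi-EV 3. None was called, and the cause was not tested. Median-of-ratios scaling, unrounded counts, filterByExpr and shared dispersions moved no count of members called. DESeq2 gave no adjusted p for miR-499a-5p in the comparisons over all libraries and called the other 5. Both differences in shares kept their sign under all alternatives, from -6.90 to -4.88 percentage points for miR-490-5p and from 10.2 to 13.0 for miR-208b-3p with a library left out. Same-numbered libraries deviated from their group means with correlations of -0.12 to 0.10, and 0 of 12 libraries were closest to their own number in every other group, so that numbers were not taken as pairs. With the replicate block, 3 members were called between CMi-EV and CPC-EV (miR-208a-5p at an edgeR FDR of 0.0589) and 5 between CMm-EV and hiPSC-EV (miR-490-5p at 0.0910), with no other change to the members called. On library size alone, CMm-EV means fell by over 1.5 times, to 394 CPM for miR-208a-3p, 161 for miR-208a-5p, 57.6 for miR-208b-3p, 665 for miR-490-3p and 225 for miR-499a-5p. The CPC-EV mean of miR-208a-3p rose by over 1.5 times, from 5.63 to 8.73 CPM. On the RPM of the authors, CMi-EV means were 421 for miR-208a-3p, 423 for miR-490-3p and 42.9 for miR-490-5p, and CMm-EV means 298, 509 and 16.9, with 126 for miR-208a-5p, 43.6 for miR-208b-3p and 174 for miR-499a-5p, lower than in CPM by over 1.5 times. Bounds, count ratios and the joint level on library size were chosen after seeing the data, and the joint level then changed by -70.4 CPM from CMi-EV to CMm-EV. Depth limits miRNA near 1 to 4 CPM, and CMm-EV 1 and hiPSC-EV 1 had the highest limits.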
